A study of Homo sapiens with 26 samples.

Results

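The 41 genes described here encode the proteins that copy DNA and supply its nucleotides, together with the cyclins and E2F factors that start S phase. They were taken by gene symbol from a list of the replication machinery, and 41 of 41 were found among the 19128 genes of the knockout tables and the 19117 genes of the parental table. By role, the list held 6 subunits of the MCM2-7 helicase, 4 genes of origin recognition and licensing, 6 of helicase activation, 5 of the sliding clamp and its loader, 6 of the polymerases and primase, 2 of Okazaki fragment maturation, 2 of single-strand DNA binding, 4 of nucleotide synthesis, 4 of S-phase entry, and the genes of 2 ubiquitin ligase subunits that act with replication. All 41 passed the filter on low values in both comparisons, which left 12387 genes in the knockout tables and 13226 in the parental table. The rule goes by function and uses no measured value.

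Before S phase, the origin recognition complex, CDC6 and CDT1 load the MCM2-7 ring onto DNA as an inactive helicase. Kinases, MCM10, CDC45 and the GINS complex then turn the ring into a moving helicase, and the polymerases copy the opened strands while held on DNA by the PCNA clamp. Many of these genes are known targets of E2F factors, whose restraint by the retinoblastoma protein is commonly lost in small cell lung cancer, a fast dividing tumour.

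RNA was sequenced from polyA-selected libraries of established human small cell lung cancer lines. POU2F3, a transcription factor of tuft cells (chemosensory cells of epithelia), was targeted with CRISPR guides in 4 lines: NCI-H211 and NCI-H1048, harvested on day 4 after lentiviral infection, and NCI-H526 and COR-L311, harvested on day 5. In each line the cells carried a control guide (sgNeg) or 1 of 2 guides against POU2F3 (sgPOU2F3e10.1 and sgPOU2F3e10.2), and the deposited tables give 1 sgNeg column and 1 sgPOU2F3 column that joins the 2 guides. Uninfected parental cells in exponential growth gave 14 further libraries, 1 a line, from those 4 lines and from DMS114, DMS79, NCI-H128, NCI-H146, NCI-H446, NCI-H510, NCI-H524, NCI-H69, NCI-H82 and NCI-H889. NCI-H1048 was grown in HITES medium, NCI-H128 in RPMI with 20% serum, and the others in RPMI with 10% serum or in HITES. The labels name no cloning step, so a sgPOU2F3 column can hold cells with an intact gene.

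Values are FPKM (fragments scaled to transcript length in kilobases and to M, mega, fragments of the library), and ratios are differences of log2(FPKM + 1), which understate the change of genes with low values. Depth, estimated from the steps between low values, was 9.2 to 14.8 M fragments in the sgNeg columns, 18.2 to 29.8 M in the sgPOU2F3 columns and 9.7 to 31.8 M in the parental libraries. At the lowest sgNeg depth, 1 fragment on a transcript of 2000 bases is worth an FPKM of 0.0543, far below the level of every gene described here. POU2F3 itself was listed at an FPKM of 307 with sgNeg and 21.3 with sgPOU2F3 in NCI-H211, 198 and 60.8 in NCI-H1048, 501 and 204 in NCI-H526, and 272 and 218 in COR-L311. Guides that cut a gene need not lower its RNA, so these levels do not measure the loss of protein. The summed FPKM of 7 tuft-like markers was 410 to 1104 in the 4 parental lines used for knockout and 1.44 to 20.6 in the other 10. Markers of other cells were low in the 4 lines, where 5 immune markers summed to at most 3.62 and 3 endothelial markers to at most 0.988. DMS114 stood apart among the others with a summed FPKM of 888.98 for 6 fibroblast genes. With 1 combined column an arm, a ratio within a line has no error, and the line was the unit of replication (n = 4 lines). In bulk RNA, a smaller share of cells in S phase and less RNA per cell cannot be told apart.

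Promoter sequences are shown for MCM6, E2F1 and MCM10. The first pair holds the E2F letters searched for here, and MCM10, the gene with the smallest p in the knockout comparison, does not. They come from RefSeq on GRCh38.p14, run 5′ to 3′ on the gene's strand from 250 bases before the start of the gene to 50 bases after it, and the capitals mark E2F letters (TTTGGCGC, TTTCCCGC, TTTCGCGC or TTTGCCGC) and the CCAAT box, each searched on both strands. MCM6 lies at chr2:135876394-135876693 on the minus strand, E2F1 at chr20:33686336-33686635 on the minus strand and MCM10 at chr10:13161308-13161607 on the plus strand.
MCM6: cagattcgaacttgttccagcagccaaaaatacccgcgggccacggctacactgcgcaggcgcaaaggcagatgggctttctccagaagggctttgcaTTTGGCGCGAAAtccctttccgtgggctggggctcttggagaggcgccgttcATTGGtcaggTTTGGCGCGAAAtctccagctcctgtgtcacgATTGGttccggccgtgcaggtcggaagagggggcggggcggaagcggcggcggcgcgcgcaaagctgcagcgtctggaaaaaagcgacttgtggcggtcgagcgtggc
E2F1: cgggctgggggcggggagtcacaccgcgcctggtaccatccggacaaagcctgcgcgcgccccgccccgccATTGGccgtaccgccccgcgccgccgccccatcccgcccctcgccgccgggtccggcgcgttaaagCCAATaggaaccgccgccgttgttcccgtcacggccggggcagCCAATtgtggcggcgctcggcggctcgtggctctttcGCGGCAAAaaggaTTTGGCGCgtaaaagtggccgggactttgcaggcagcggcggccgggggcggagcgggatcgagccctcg
MCM10: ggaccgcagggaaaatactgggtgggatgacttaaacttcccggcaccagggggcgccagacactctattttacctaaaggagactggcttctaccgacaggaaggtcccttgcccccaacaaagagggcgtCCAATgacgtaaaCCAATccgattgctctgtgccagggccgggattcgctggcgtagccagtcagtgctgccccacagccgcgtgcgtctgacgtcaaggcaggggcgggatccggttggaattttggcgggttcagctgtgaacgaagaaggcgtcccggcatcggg
In MCM6 the E2F letters lie at 2 places, each read on both strands through overlapping matches, and E2F1 also has them at 2 places. MCM10 has none of the E2F letters searched for in this window and 2 CCAAT boxes. Letters that differ from them by a base were not searched, so other forms of the site can be present.

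Of the 41 genes, 35 had an entry in the promoter table, and MCM4, MCM5, GINS4, RPA2, RPA3 and CCNE2 had none. E2F letters were found in 21 of the 35 promoters (60%), against 1164 of all 35116 promoters of the same length (3.31%) and 627 of the 14402 promoters of genes in the parental table (4.35%). MCM3, MCM6, MCM7 and E2F1 held them at 2 separate places. The CCAAT box was found in 20 of the 35 (57.1%), against 34.6% of all promoters, and 12 promoters held both sets of letters. In a list of 23 mitosis genes used below for comparison, 18 had an entry, of which 1 held E2F letters (5.56%) and 14 held CCAAT (77.8%). In MCM7 the E2F letters and a CCAAT box overlap by 1 base near the start. A match of letters is a description of the sequence and not a measured binding site.

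Averaged over the 4 lines, the level of the 41 genes with the POU2F3 guides stayed near that with sgNeg, and no gene passed the test. Single lines differed, as given below. POU2F3 itself (mean log2 ratio -1.77, adjusted p = 0.40, limma) and the tuft-like marker AVIL (-2.25, adjusted p = 0.37) did not pass either. Not passing therefore does not show that a level was unchanged. With limma across the 4 lines, 0 of 41 passed an adjusted p of 0.05 in either direction, as did 0 of all 12387 tested genes on the lower side (0%) and 2 on the higher side (0.0161%). At an unadjusted p under 0.05, 1 of the 41 was lower, MCM10 (all genes, 7.08%), and 0 were higher (all genes, 4.67%). The mean log2 ratio of sgPOU2F3 to sgNeg ran from -0.34 in POLD1 to 0.28 in CCNE2, with a median of -0.13 beside -0.02 over all tested genes. It was below 0 in 36 of the 41 genes, against 53.2% of all genes. For all 41 the 95% interval of the mean ratio lay within 2-fold in both directions (all genes, 90.9%), and for 34 of 41 it lay within 1.5-fold (all genes, 65.7%). The lowest bound was -0.74 in POLD1 and the highest 0.93 in CCNE2, so a mean change larger than these was outside the interval of every gene of the list.

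**Figure D1:**
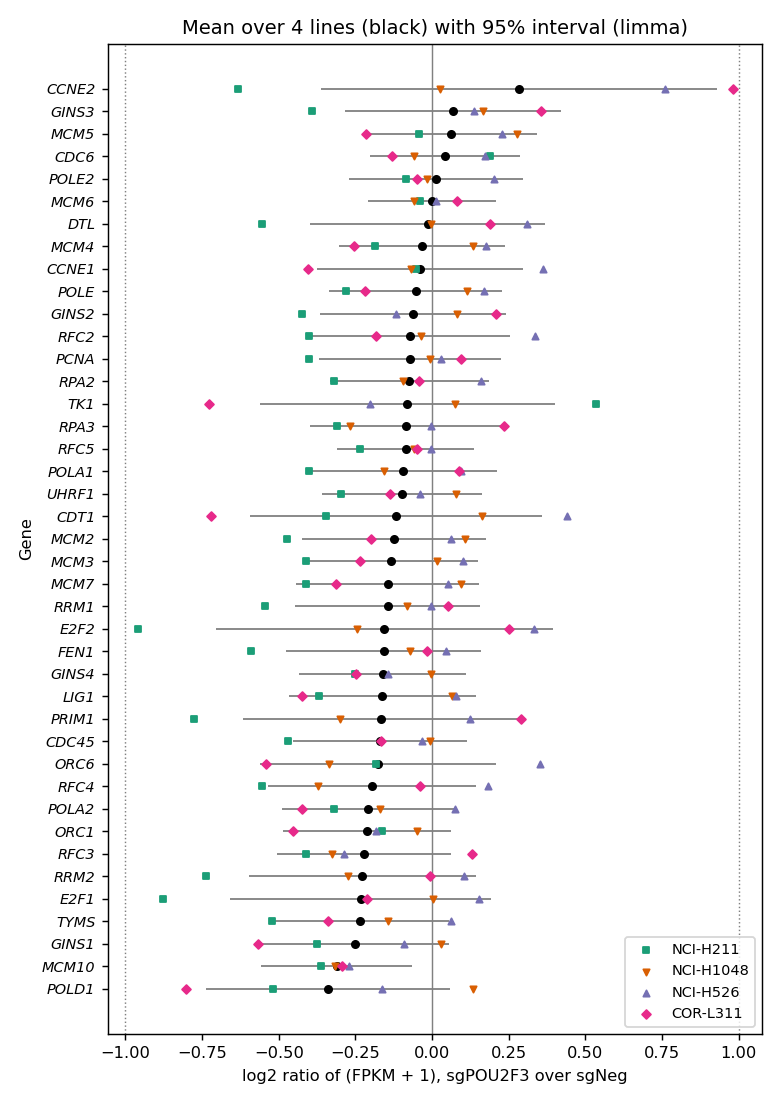
Mean log2 ratio of sgPOU2F3 to sgNeg for each of the 41 genes (horizontal axis, log2 of FPKM + 1), with its 95% limma interval as a bar and the 4 lines as points. The means lie between -0.34 and 0.28, and the interval of MCM10 alone stays below 0.

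The lines differed from each other in the sign of the ratio. In NCI-H211 the ratio was below 0 in 39 of 41 genes (all genes, 53.4%), with a median of -0.39. In COR-L311 it was below 0 in 29 of 41 (all genes, 51.6%), median -0.17, and in NCI-H1048 in 25 of 41 (all genes, 50.4%), median -0.02. In NCI-H526 the sign went the other way, with 28 of 41 above 0 (all genes, 46.5%) and a median of 0.08. Medians over all tested genes lay between -0.03 and -0.00 in the 4 lines. A ratio at least 1.5-fold lower was seen in 6 of 41 genes in NCI-H211 (all genes, 11.7%), 3 in COR-L311 (all genes, 10%), 0 in NCI-H1048 (all genes, 2.47%) and 0 in NCI-H526 (all genes, 2.49%), and on that scale of log2(FPKM + 1) none was 2-fold lower in any line (all genes, 4.26%, 1.92%, 0.783% and 0.388% in the same order). On the higher side, 1 of 41 was at least 1.5-fold up in COR-L311 and 1 in NCI-H526, CCNE2 in both (all genes, 8.88% and 3.93%), and 0 were in NCI-H211 and NCI-H1048 (all genes, 10.1% and 2.66%). NCI-H211 was also the line with the least POU2F3 RNA left, and the one in which the sgPOU2F3 column held the highest level of YAP1, at an FPKM of 56.0. In NCI-H1048, NCI-H526 and COR-L311 the log2 ratio of POU2F3 was -1.69, -1.29 and -0.31, and that of YAP1 0.88, -0.23 and -0.03. Neither followed the order of the medians of the 41 genes in these lines. The part of POU2F3 or YAP1 in the ratios of the 41 genes was not tested. Without NCI-H211 the median of the list was -0.02, and 26 of 41 means were below 0. The share of all genes below 0 without that line is not given here (53.2% with all 4 lines).

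**Figure D2:**
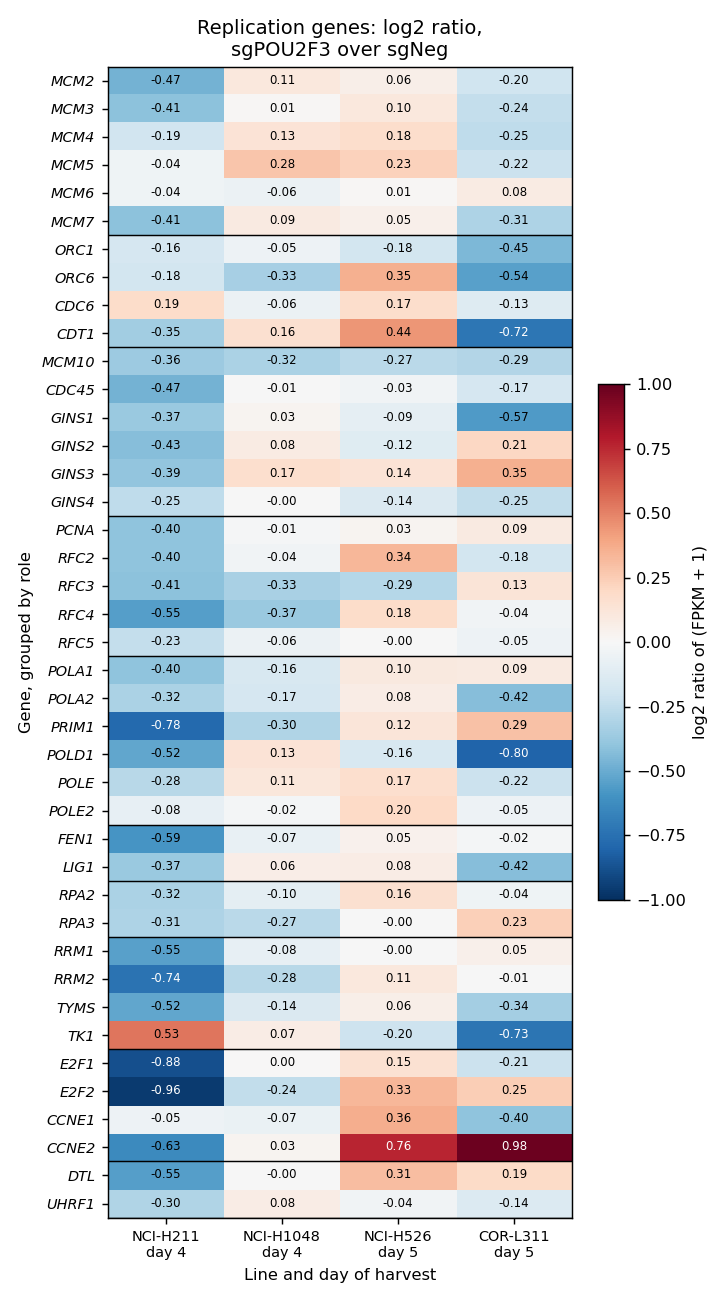
Log2 ratio of sgPOU2F3 to sgNeg for the 41 genes (rows, grouped by role) in the 4 lines (columns), on a colour scale from lower (blue) to higher (red). The NCI-H211 column is below 0 in 39 of 41 genes and the NCI-H526 column above 0 in 28.

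The helicase subunits MCM2 to MCM7 had a median mean ratio of -0.08. None of the 6 differed in the same direction in all lines, and 6 of 6 were below 0 in NCI-H211 while 0 of 6 were in NCI-H526. MCM7 stood at an FPKM of 174 with sgNeg and 131 with sgPOU2F3 in NCI-H211, 176 and 188 in NCI-H1048, 244 and 253 in NCI-H526, and 185 and 148 in COR-L311. Its mean log2 ratio was -0.14 ± 0.25 (SD, n = 4 lines), with a 95% interval of -0.44 to 0.15 and an adjusted p of 0.65 (limma). MCM3 measured 125 and 93.9 in NCI-H211, 106 and 107 in NCI-H1048, 121 and 130 in NCI-H526, and 134 and 114 in COR-L311 (mean log2 ratio -0.13 ± 0.23, adjusted p = 0.66). Both were lower with the guides in NCI-H211 and COR-L311 and level or higher in the other 2 lines. MCM5 was the subunit with the highest mean, with 27.3 and 26.5 in NCI-H211, 38.2 and 46.5 in NCI-H1048, 38.8 and 45.5 in NCI-H526, and 35.3 and 30.3 in COR-L311 (0.06 ± 0.23, adjusted p = 0.85). MCM6 varied least of the 41 genes after MCM10, with line ratios from -0.06 to 0.08 and a mean of -0.00 ± 0.06 (95% interval -0.21 to 0.21). MCM2 and MCM4 had mean ratios of -0.13 and -0.03. The subunits assemble in equal numbers in 1 ring, and exons of MCM7 overlap those of AP4M1 on the opposite strand by 392 bases in GENCODE v29, where reads of the 2 genes cannot be told apart without strand.

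The 4 licensing genes, which mark origins and load the ring, had a median mean ratio of -0.15. ORC1, the largest subunit of the origin recognition complex, was the lowest of them and was below 0 in all 4 lines. Its FPKM was 16.0 and 14.1 in NCI-H211, 12.3 and 11.8 in NCI-H1048, 18.4 and 16.1 in NCI-H526, and 7.84 and 5.46 in COR-L311 (sgNeg first, here and below), a mean log2 ratio of -0.21 ± 0.17 with an adjusted p of 0.50. ORC6, the smallest subunit, measured 41.3 and 36.3 in NCI-H211, 18.4 and 14.4 in NCI-H1048, 12.6 and 16.4 in NCI-H526, and 16.6 and 11.1 in COR-L311 (-0.18 ± 0.38, adjusted p = 0.67). Between lines, the sgNeg and sgPOU2F3 values of both genes overlapped widely. Within lines, which is what the test compares, ORC6 was lower with the guides in every line but NCI-H526. CDT1, which brings the helicase to the origin, ranged from -0.72 in COR-L311 to 0.44 in NCI-H526 (mean -0.12). CDC6, the ATPase of loading, ranged from -0.13 to 0.19 (mean 0.04).

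Among the 6 genes of helicase activation the median mean ratio was -0.17. MCM10, a scaffold that acts when the loaded helicase starts to move, had the most even ratio of the list. It was measured at 10.7 and 8.07 in NCI-H211, 9.71 and 7.60 in NCI-H1048, 12.4 and 10.1 in NCI-H526, and 11.7 and 9.38 in COR-L311. The 4 ratios lay between -0.36 and -0.27, with a mean of -0.31 ± 0.04 (SD, n = 4 lines) and a 95% interval of -0.56 to -0.06. Its adjusted p over all tested genes was 0.40 (limma), so it did not pass, and the value with each line left out lay between -0.32 and -0.29. GINS1, a subunit of the GINS complex, measured 35.4 and 27.0 in NCI-H211, 14.3 and 14.6 in NCI-H1048, 39.6 and 37.0 in NCI-H526, and 34.5 and 22.96 in COR-L311 (-0.25 ± 0.27, adjusted p = 0.48). The GINS subunits did not share a direction. GINS3 measured 23.1 and 17.4 in NCI-H211, 13.5 and 15.3 in NCI-H1048, 10.7 and 11.9 in NCI-H526, and 8.99 and 11.8 in COR-L311 (0.07 ± 0.32, adjusted p = 0.87). GINS2 had a mean of -0.06 and GINS4 of -0.16, and CDC45, which completes the active helicase, a mean of -0.17. MCM10, CDC45 and GINS4 were below 0 in all 4 lines, and with ORC1 and RFC5 they made 5 of the 41 genes (all genes, 12.9%). No gene of the 41 was above 0 in all 4 lines (all genes, 9.81%).

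The clamp PCNA and the loader subunits RFC2 to RFC5 had a median mean ratio of -0.09. PCNA ran from -0.40 in NCI-H211 to 0.09 in COR-L311, with a mean of -0.07. RFC3 measured 27.6 and 20.5 in NCI-H211, 22.4 and 17.7 in NCI-H1048, 95.8 and 78.4 in NCI-H526, and 43.7 and 47.8 in COR-L311 (-0.22 ± 0.24, adjusted p = 0.50). RFC4 measured 54.9 and 37.1 in NCI-H211, 49.0 and 37.6 in NCI-H1048, 41.4 and 47.1 in NCI-H526, and 37.9 and 36.9 in COR-L311 (-0.20 ± 0.33, adjusted p = 0.60). RFC3 was lower with the guides in every line but COR-L311, and RFC4 in every line but NCI-H526. RFC2 and RFC5 had means of -0.07 and -0.09.

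The polymerase and primase genes had a median mean ratio of -0.13. POLD1, the catalytic subunit of the polymerase that copies the lagging strand, had the lowest mean of the 41 genes. Its FPKM was 43.0 and 29.7 in NCI-H211, 18.8 and 20.7 in NCI-H1048, 36.5 and 32.5 in NCI-H526, and 28.9 and 16.1 in COR-L311. The ratio was -0.80 in COR-L311 and 0.13 in NCI-H1048, and the mean of -0.34 ± 0.41 did not exceed the spread between lines (95% interval -0.74 to 0.06, adjusted p = 0.47). POLA2, a subunit of the polymerase that starts each new strand, measured 22.2 and 17.6 in NCI-H211, 14.96 and 13.2 in NCI-H1048, 27.1 and 28.6 in NCI-H526, and 20.5 and 15.1 in COR-L311 (-0.21 ± 0.22, adjusted p = 0.52). PRIM1, the primase that lays the RNA primer, had the widest split of the group, from -0.78 in NCI-H211 to 0.29 in COR-L311. POLA1, POLE and POLE2 had means of -0.09, -0.05 and 0.01.

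Okazaki fragments are trimmed by the nuclease FEN1 and joined by the ligase LIG1, and the strand exposed between them is bound by RPA. FEN1 measured 136 and 90.2 in NCI-H211, 105 and 99.7 in NCI-H1048, 170 and 176 in NCI-H526, and 121 and 119 in COR-L311 (-0.16 ± 0.29, adjusted p = 0.64). LIG1 measured 50.5 and 38.9 in NCI-H211, 19.1 and 20.0 in NCI-H1048, 30.4 and 32.1 in NCI-H526, and 30.7 and 22.6 in COR-L311 (-0.16 ± 0.27, adjusted p = 0.62). The low value of FEN1 came from NCI-H211 alone, and those of LIG1 from NCI-H211 and COR-L311. RPA2 measured 53.5 and 42.7 in NCI-H211, 38.9 and 36.3 in NCI-H1048, 39.6 and 44.4 in NCI-H526, and 42.9 and 41.5 in COR-L311 (-0.07 ± 0.20, adjusted p = 0.80). RPA3 measured 28.8 and 23.1 in NCI-H211, 10.8 and 8.83 in NCI-H1048, 9.43 and 9.40 in NCI-H526, and 14.95 and 17.8 in COR-L311 (-0.09 ± 0.25, adjusted p = 0.80). Neither RPA gene held 1 sign in all lines. Without NCI-H211 the mean of RPA2 was 0.0072, above 0.

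The 4 nucleotide synthesis genes had a median mean ratio of -0.19, the lowest of the role groups. TYMS, which makes thymidylate, measured 210.8 and 146.4 in NCI-H211, 139 and 125 in NCI-H1048, 86.2 and 90.02 in NCI-H526, and 135 and 106 in COR-L311 (-0.24 ± 0.25, adjusted p = 0.48). Exons of TYMS overlap those of ENOSF1 on the opposite strand by 967 bases. RRM2, the regulated subunit of ribonucleotide reductase, measured 24.8 and 14.5 in NCI-H211, 67.1 and 55.3 in NCI-H1048, 86.4 and 93.0 in NCI-H526, and 37.3 and 37.1 in COR-L311 (-0.23 ± 0.37, adjusted p = 0.58). Its partner RRM1 had a mean of -0.15, with -0.55 in NCI-H211 and ratios between -0.08 and 0.05 elsewhere. TK1, the thymidine salvage kinase, was 1 of 2 genes above 0 in NCI-H211 (0.53) and was at -0.73 in COR-L311. The other gene above 0 in NCI-H211 was CDC6. Named pseudogenes exist for PCNA, RPA2, RRM2, TYMS, RFC3, RFC5 and FEN1, and how reads shared with them were counted is not given in the sources used here.

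The genes of S-phase entry included E2F2 and CCNE2, whose ratios had the widest spread between lines of the 41. E2F1, an activator of these promoters, measured 65.7 and 35.3 in NCI-H211, 37.7 and 37.8 in NCI-H1048, 85.4 and 95.01 in NCI-H526, and 106 and 91.7 in COR-L311 (-0.23 ± 0.45, adjusted p = 0.62). Its relative E2F2 was at 8.97 and 4.12 in NCI-H211, 15.1 and 12.6 in NCI-H1048, 10.2 and 13.1 in NCI-H526, and 9.29 and 11.2 in COR-L311 (-0.16 ± 0.59, adjusted p = 0.80). For both factors the NCI-H211 ratio was the lowest, at -0.88 and -0.96. In FPKM itself, with nothing added, E2F2 was more than 2-fold lower in NCI-H211. CCNE2, a cyclin that activates CDK2 at the start of S phase, measured 20.7 and 12.96 in NCI-H211, 24.7 and 25.1 in NCI-H1048, 24.4 and 41.9 in NCI-H526, and 13.4 and 27.3 in COR-L311. Its mean of 0.28 ± 0.73, the highest of the list, was smaller than its spread (95% interval -0.36 to 0.93, adjusted p = 0.68). CCNE1, the other cyclin E gene, had a mean of -0.04, from -0.40 in COR-L311 to 0.36 in NCI-H526. Exons of CCNE2 overlap those of INTS8 on the opposite strand by 1629 bases, so part of its signal cannot be assigned. The same limit holds for POLA2 (2012 bases), RRM2 (1077), POLD1 (426) and PRIM1 (362), whose exons overlap another gene on the same strand. Opposite-strand overlaps of at least 100 bases were also found for MCM2 (1113), GINS4 (1159), GINS3 (558), PRIM1, RFC5, FEN1, LIG1 and RPA3. DTL, the substrate receptor that removes CDT1 in S phase, measured 31.0 and 20.8 in NCI-H211, 30.1 and 30.02 in NCI-H1048, 12.5 and 15.8 in NCI-H526, and 11.4 and 13.1 in COR-L311 (-0.01 ± 0.38, adjusted p = 0.98). UHRF1, which keeps DNA methylation on the new strand, measured 28.6 and 23.1 in NCI-H211, 13.96 and 14.8 in NCI-H1048, 18.8 and 18.2 in NCI-H526, and 9.62 and 8.65 in COR-L311 (-0.10 ± 0.16, adjusted p = 0.72).

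The ratios of the 2 lines harvested on day 5 were also compared with those of the 2 harvested on day 4, although the day and the line cannot be told apart. With limma, 0 of 41 genes passed an adjusted p of 0.05 (all genes, 0%), and the smallest adjusted p was 0.83. At an unadjusted p under 0.05, 4 were higher in the day 5 lines (all genes, 2.76%) and 1 was lower (all genes, 2.74%). CCNE2 had a mean ratio of -0.30 in the day 4 lines and 0.87 in the day 5 lines, a difference of 1.17 ± 0.29 (SE). E2F2 differed by 0.89, PRIM1 by 0.75 and RFC4 by 0.54 in the same direction. TK1 differed in the other direction, from 0.30 in the day 4 lines to -0.47 in the day 5 lines.

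Genes with these exact E2F letters in the promoter did not have a lower median than those without. Promoters without them can hold other forms of the site, so the split does not separate genes by E2F binding, which was not measured. The median mean ratio was -0.12 over the 21 genes with the letters and -0.17 over the 14 without. Over the 522 tested genes with these letters in the whole table it was -0.04, against -0.01 over all 9690 tested genes with a promoter entry. In NCI-H211 the medians were -0.10 and -0.03 in the same order, so there the genes with the letters were somewhat lower. Of the 522, 13.8% were below 0 in all 4 lines, against 13.2% of the 9690.

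Genes that act with the 41 were drawn from 4 further lists, none of which holds a gene that passed an adjusted p of 0.05. Another 33 replication genes had a median mean ratio of -0.11, and 4 of the 33 were lower at an unadjusted p under 0.05 (all genes, 7.08%). Those were DBF4, the activating subunit of the kinase that fires origins (-0.46 ± 0.12, adjusted p = 0.38), POLD2 (-0.39), ORC2 (-0.29) and TICRR (-0.30). DBF4 was lower with the guides in each line, at 16.9 and 10.7 in NCI-H211, 12.8 and 9.99 in NCI-H1048, 21.4 and 15.7 in NCI-H526, and 16.5 and 11.7 in COR-L311. Another 23 nucleotide synthesis genes had a median of -0.25, with 8 of the 23 lower at an unadjusted p under 0.05 (all genes, 7.08%). ADSL (-0.33), PPAT (-0.36), PAICS (-0.33) and CTPS1 (-0.30) were the examples taken by p. ADSL, PPAT and PAICS act in purine synthesis and CTPS1 makes CTP. The median of that list was -0.49 in COR-L311 and between -0.21 and -0.09 in the other lines, and without COR-L311 1 of the 23 was lower at that p (all genes, 5.63%).

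The 23 mitosis genes had a median mean ratio of -0.57, with 21 lower at an unadjusted p under 0.05 (all genes, 7.08%) and 22 below 0 in all 4 lines (all genes, 12.9%). Their means ran from -0.78 to -0.33, and 0 of 23 passed an adjusted p of 0.05 (smallest 0.31). By line the median was -0.97 in NCI-H211, -0.53 in COR-L311, -0.46 in NCI-H526 and -0.22 in NCI-H1048. In NCI-H526 the mitosis genes were thus below sgNeg while the median replication gene was at 0.08. AURKA, a kinase of the spindle poles, measured 39.2 and 19.6 in NCI-H211, 28.0 and 20.0 in NCI-H1048, 63.5 and 46.3 in NCI-H526, and 76.8 and 44.4 in COR-L311 (adjusted p = 0.31), and with BUB1, AURKB and NUF2 it had the smallest p of the list. Since both lists were set side by side with earlier results of these data known, the difference between them is given as a description and was not tested. Of 24 tested E2F, cyclin and CDK regulators the median was -0.04. At an unadjusted p under 0.05, CDKN2D (-0.62) and E2F3 (-0.27) were lower, as was CCNA2 (-0.51), the cyclin of S phase and G2. CDKN1A, an inhibitor of cyclin-CDK complexes, was the 1 regulator higher at that p, with ratios of 2.65 in COR-L311, 1.05 in NCI-H526, 0.13 in NCI-H1048 and 0.66 in NCI-H211 (mean 1.13 ± 1.09, adjusted p = 0.40).

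**Figure D3:**
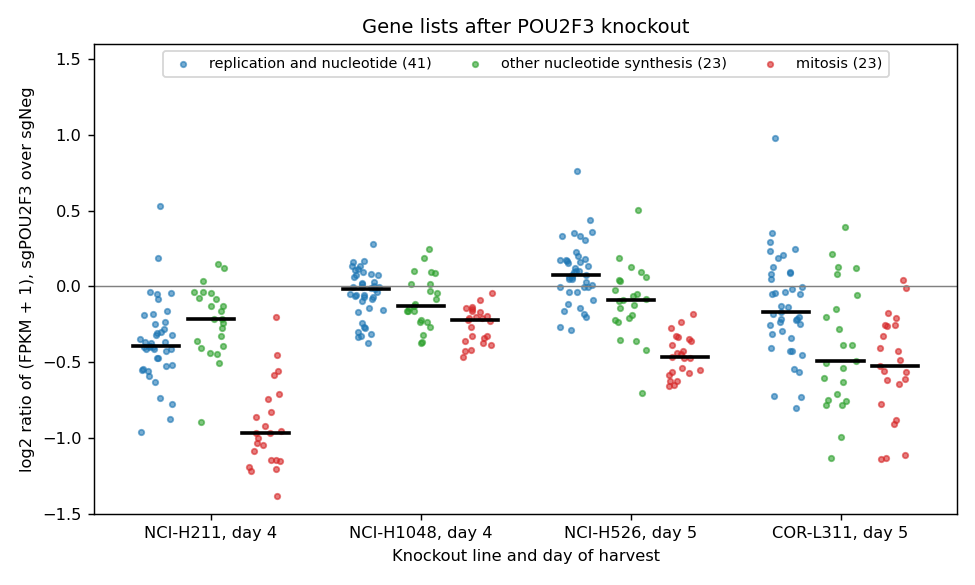
Log2 ratio of sgPOU2F3 to sgNeg in each of the 4 lines for the 41 replication genes, 23 other nucleotide synthesis genes and 23 mitosis genes (points are genes, bars are medians). The replication medians are -0.39, -0.02, 0.08 and -0.17 in NCI-H211, NCI-H1048, NCI-H526 and COR-L311, and the mitosis medians are -0.97, -0.22, -0.46 and -0.53.

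In the parental libraries, levels can be set side by side between genes because FPKM is per length. PCNA had the highest median FPKM of the 41, at 379 (263 in DMS114 to 664 in COR-L311), followed by MCM7 at 238 (96.5 in NCI-H510 to 404 in NCI-H526) and TYMS at 171 (67.8 in NCI-H526 to 287 in NCI-H146). GINS4 had the lowest median, 8.37, and GINS3 the next, 12.1. The MCM2-7 subunits, which join in equal numbers, were not equal in RNA. MCM7 was the highest of the 6 in 13 of 14 lines, with MCM3 the highest in NCI-H510, and the lowest was MCM5 or MCM6 in every line. The highest subunit exceeded the lowest by 2.47-fold in NCI-H446 and by 7.52-fold in NCI-H211. With 1 library a line, these ratios carry no replicate error.

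**Figure D4:**
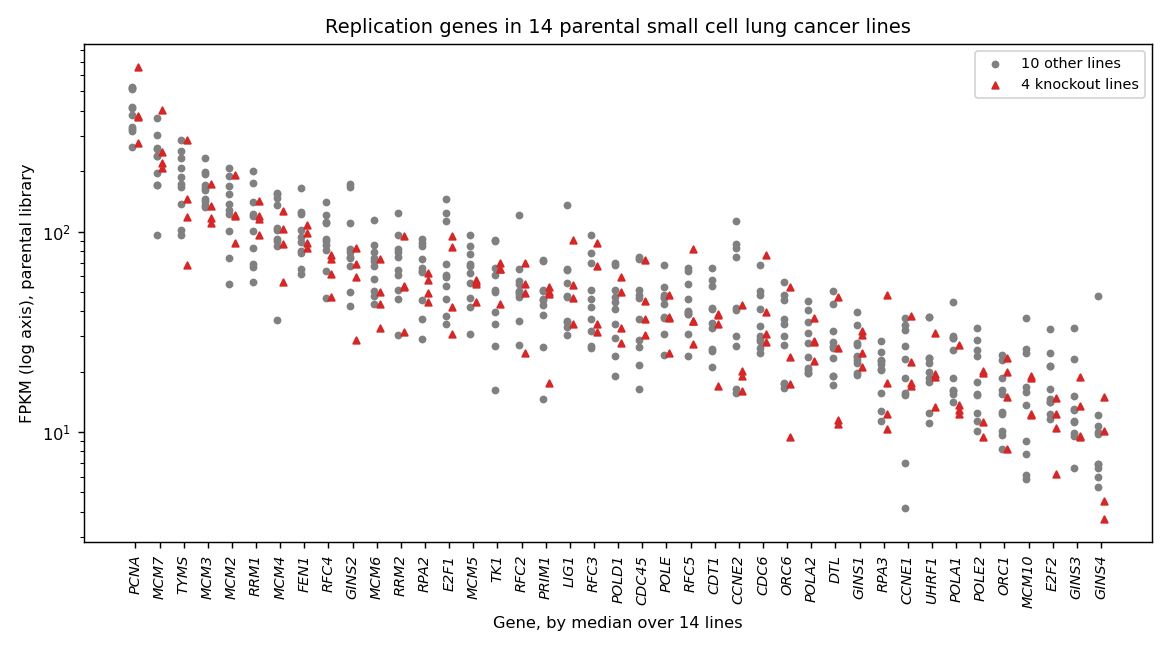
FPKM (logarithmic axis) of the 41 genes in the 14 parental libraries, with the 4 lines used for knockout set apart by colour from the other 10. PCNA, MCM7 and TYMS have the highest medians, GINS4 the lowest, and the single high GINS4 point is DMS114.

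The 41 genes varied less between lines than the median tested gene. The tested genes were not matched to them for level, and needed an FPKM of 1 in only 4 of the 14 lines. The SD of log2 values over the 14 lines had a median of 0.55 (range 0.30 to 0.97) beside 0.70 over all tested genes, and it lay below that for 35 of 41. GINS1 had the narrowest range, from an FPKM of 19.3 in NCI-H889 to 39.6 in NCI-H510 (median 24.4), or 1.0 on the log2 scale. MCM3 followed with 110 in NCI-H526 to 233 in NCI-H69 (median 153), and POLA2 with 19.6 in NCI-H524 to 45.0 in NCI-H69 (median 27.9). GINS4 had the widest range, 3.39, from 3.67 in COR-L311 to 47.8 in DMS114, where the next line, NCI-H1048, was at 14.98. The cyclin E genes came next. CCNE1 ran from 4.2 in NCI-H128 to 38.1 in NCI-H1048 (median 20.4), and CCNE2 from 15.7 in NCI-H524 to 113 in DMS79 (median 35.2). They did not share an order, since NCI-H128 was the lowest line for CCNE1 and had 82.7 for CCNE2.

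No gene of the 41 passed the test between the 4 lines used for knockout and the other 10. With limma, 0 of 41 passed an adjusted p of 0.05 in either direction (all genes, 0.0378% lower and 0.212% higher in the 4 lines). At an unadjusted p under 0.05, 1 was lower in the 4 lines (all genes, 4.06%) and 0 were higher (all genes, 4.6%), and in none of the 41 did the groups separate without overlap (all genes, 0.25% lower and 0.401% higher). The median difference was -0.12, beside -0.00 over all genes, and it was below 0 in 26 of 41 (all genes, 50.2%). The 95% interval lay within 2-fold for 26 of 41 (all genes, 31.7%).

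E2F2 had the smallest p. It stood at an FPKM of 6.16 in NCI-H211, 10.5 in NCI-H1048, 12.3 in NCI-H526 and 14.8 in COR-L311, against 11.6 to 32.8 (median 15.5) in the other 10 lines, a log2 difference of -0.68 ± 0.30 (SE, adjusted p = 0.54). RFC4 stood at 73.2, 61.5, 76.1 and 47.4 in the same order, against 46.8 to 140 (median 90.8), a difference of -0.50 ± 0.27 (adjusted p = 0.65). In both genes all 4 lines lay below the median of the others and inside or below their range. CCNE2 stood at 19.1, 43.2, 15.9 and 20.3, against 15.7 to 113 (median 41.1), with a difference of -0.89 ± 0.49 (adjusted p = 0.66). MCM6 stood at 33.0, 43.7, 73.0 and 50.01, against 43.3 to 114 (median 69.5), with a difference of -0.46 ± 0.27 (adjusted p = 0.69). For these 2 genes 1 of the 4 lines lay above the median of the others, NCI-H1048 for CCNE2 and NCI-H526 for MCM6. POLA1 stood at 13.6, 12.8, 27.1 and 12.3, against 14.1 to 44.6 (median 22.2), with a difference of -0.50 ± 0.32. MCM3 stood at 134, 116, 110 and 172, against 133 to 233 (median 163), with a difference of -0.33 ± 0.21 (adjusted p = 0.72 for both).

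Averaged over the 41 genes, each taken as its deviation from its own mean over lines, NCI-H510 was the lowest line (-0.30 on the log2 scale) and NCI-H82 the highest (0.35), with NCI-H69 next (0.25). Of the 4 knockout lines, NCI-H211 lay at 0.04, NCI-H526 at -0.09, COR-L311 at -0.16 and NCI-H1048 at -0.20, among the others. NCI-H69 was the highest line for 8 genes and NCI-H82 for 7, and neither was the lowest for any. NCI-H510 was the lowest for 7.

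**Figure D5:**
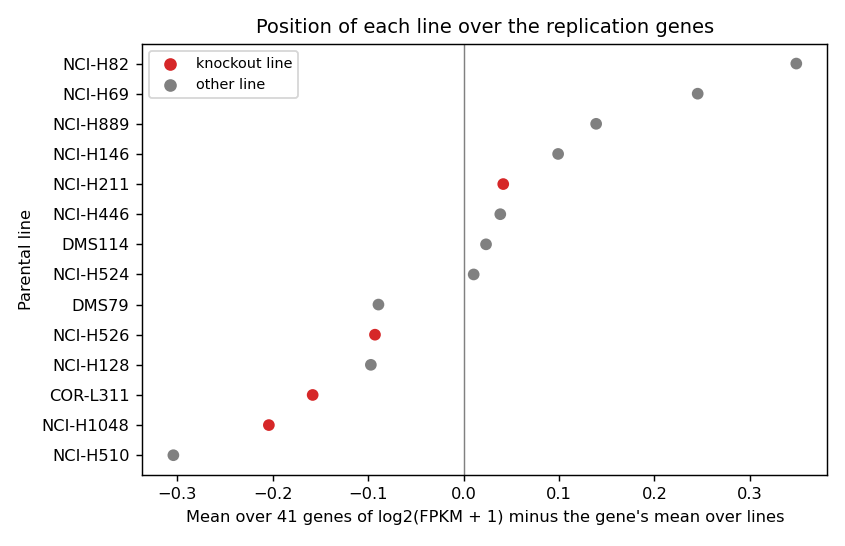
Mean deviation of the 41 genes from their own mean over lines (log2 of FPKM + 1) in each of the 14 parental libraries, with the 4 knockout lines marked. The values run from -0.30 in NCI-H510 to 0.35 in NCI-H82, and the knockout lines lie between -0.20 and 0.04.

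Across the 14 lines the 41 genes moved together only weakly. Pearson's r of log2 values, given as a description over 14 libraries that each differ in depth, had a median of 0.09 over the 820 pairs of the 41 genes, with a range from -0.77 to 0.77. Against all other tested genes, the 41 had a median r of -0.0046 (quartiles -0.22 to 0.21). Pairs within the MCM2-7 subunits had a median of 0.35 (15 pairs) and pairs of the 23 mitosis genes 0.40 (253 pairs), while pairs of a replication gene with a mitosis gene had a median of -0.03. The most alike pairs were FEN1 with RRM1 (0.77), MCM4 with MCM7 (0.75) and MCM4 with MCM5 (0.75). The least alike were RFC5 and TK1 (-0.77). RFC4 had the highest mean r with the other 40 genes (0.23), and CCNE2 the lowest (-0.10).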

How the data were processed

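The authors deposited FPKM values, in 1 table per knockout line and another of the 14 parental lines (called RPKM in the labels). Per the submitters' processing notes, TopHat2, Cufflinks and Cuffdiff were used with hg19. Versions, roles, annotation and scaling are not given in the sources used here. Per the labels' protocols, the library kit was TruSeq v2, which does not mark strand. The authors joined 2 guides into 1 column, in a way not stated.

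Values were taken as log2(FPKM + 1). A gene entered a fit where 4 or more columns reached an FPKM of 1. The eBayes test of limma 3.58.1 (under R 4.3.3, trend option on) was used for the knockout, with line and arm as terms (3 residual degrees of freedom), and for the parental groups (4 against 10 lines). p-values were Benjamini-Hochberg adjusted over all tested genes, threshold 0.05. The line pairs the columns, since both arms come from 1 line and 1 table, and is the block. Both fits were run on simulated data with planted changes larger than any mean ratio or difference of the 41 genes. Those runs do not cover changes of the size reported here. The labels do not say that lines were repeated, and p-values measure the spread between lines only. Over the 41 genes, the sgNeg columns had a Pearson's r of 0.93 to 0.96 with the parental library of their line, in separately made tables, and a median log2 difference (sgNeg minus parental) of -0.34 in NCI-H1048, -0.32 in COR-L311, -0.22 in NCI-H211 and 0.07 in NCI-H526. Depth was estimated with GENCODE v29 transcript lengths (GRCh38), not the tables' build, and gene positions and overlaps come from it too. Tables and figures used Python 3.11.15 and matplotlib 3.10.9.

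Values in all 8 knockout columns are given for the 1 or 2 genes of each role with the smallest knockout p and the 5 lowest and 3 highest means. Parental values are given for the 6 smallest parental p (each knockout line, with the range and median of the other 10) and the 3 widest and 3 narrowest ranges (lowest, median and highest line). The 41 genes and the further lists were chosen with earlier results of these data known. Alternatives were another pseudocount, other filters, centred ratios, quantile normalization, no trend, no block and leaving out each line.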

Additional observations from a re-analysis of the deposited data

Results flagged for a closer look

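Of 123 groups tested (for each of the 41 genes the 4 knockout ratios, the 4 parental knockout lines and the 10 other lines), 7 had a line far from the rest, a gap above the 95% critical value of Dixon's test, which chance passes in about 1 in 20 groups. The values are log2(FPKM + 1) in the parental libraries. Among the 10 other lines, MCM4 was at 5.22 in NCI-H510 with the nearest line at 6.42, GINS4 was at 5.61 in DMS114 with the nearest at 3.71, and LIG1 was at 7.10 in NCI-H146 with the nearest at 6.05. Among the 4 knockout lines, NCI-H1048 was low in CDT1 (4.17, nearest 5.16) and in PRIM1 (4.22, nearest 5.63). NCI-H526 was high in POLA1 (4.81, nearest 3.87) and low in TK1 (5.48, nearest 6.04).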

How the results depend on the processing

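No gene of the 41 passed an adjusted p of 0.05 in either comparison under any alternative run; the smallest adjusted p reached was 0.36 for MCM10 (filter at an FPKM of 5) in the knockout and 0.49 for E2F2 in the parental comparison. Without the replicate block, the line that pairs the columns, the count of genes lower at an unadjusted p under 0.05 was 0 instead of 1 (all genes, 0.178%). Leaving out each line gave 0 to 2 such genes (all genes, 4.65% to 7.24%), with 2 without COR-L311 and 0 without NCI-H211 or NCI-H526. The count below 0 in every line was 5, with 2 under quantile normalization (all genes, 12.3%) and 5 to 15 with a line left out (all genes, 17.6% to 21.9%; the 15 without NCI-H526, where the share of all genes was 17.6%). The list's median of -0.13 was -0.06 under quantile normalization and -0.11 with centred ratios, and ran from -0.19 without NCI-H526 to -0.02 without NCI-H211. Of the 41 means, 36 were below 0, against 30 under quantile normalization, 26 without NCI-H211 and 32 without COR-L311, and 18 changed sign under at least 1 alternative. The share of all genes with a mean below 0 was 53.2% in the main fit and is not given here for the alternatives. With centred ratios, DTL was 0.0022 and MCM6 0.015. Under quantile normalization, MCM4 was 0.057, MCM6 0.062, GINS2 0.025, PCNA 0.039, POLE2 -0.020, RPA2 0.0015, CCNE1 0.00097 and DTL 0.0053. With a line left out, the means that changed sign ran from -0.10 to 0.040 in MCM4, -0.010 to 0.15 in MCM5, -0.029 to 0.017 in MCM6, -0.0055 to 0.10 in CDC6, -0.30 to 0.084 in CDT1, -0.15 to 0.057 in GINS2, -0.029 to 0.22 in GINS3, -0.13 to 0.038 in PCNA, -0.21 to 0.038 in RFC2, -0.16 to 0.0079 in POLA1, -0.32 to 0.038 in PRIM1, -0.13 to 0.021 in POLE, -0.050 to 0.046 in POLE2, -0.15 to 0.0072 in RPA2, -0.29 to 0.13 in TK1, -0.32 to 0.11 in E2F2, -0.17 to 0.080 in CCNE1 and -0.12 to 0.16 in DTL. Of these, 12 changed sign without NCI-H211 and 6 without COR-L311. In the parental comparison, leaving out a line gave 0 to 3 genes lower at an unadjusted p under 0.05 (3 without NCI-H526), 0 to 1 with groups apart, and a median from -0.16 to -0.03. In the main fit 4.06% of all genes were lower at that p, and groups were apart in 0.25% (lower) and 0.401% (higher). Shares of all genes with a line left out are not given here, so these counts cannot be set against them. The cause of each change was not tested. Precision is limited by 4 lines and joined guides; every gene lies far above the value of 1 fragment.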

Other observations

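GINS4 stood out in DMS114 (FPKM 47.8 against at most 14.98 elsewhere), and the genes next to it were looked at after this value was seen. Of the 10 tested genes nearest to GINS4, 5 on each side, 6 had their highest level in DMS114, against 10.9% of all tested genes and 13.6% of the 440 tested genes of the same chromosome. TM2D2 was at 52.5 in DMS114 against a median of 8.19 in the other 13 lines, ADAM9 at 107 against 16.2, and GOLGA7 at 96.5 against 34.8. Each is 1 library, with no replicate.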
